A study of Mus musculus with 3 samples.

Results

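Expression of 8 serine protease genes named Prss was examined in the utero-tubular junction of the mouse, the narrow passage between the uterus and the oviduct that sperm cross after mating. The genes are Prss28, Prss29, Prss8, Prss12, Prss22, Prss23, Prss27 and Prss35, and they were found as the non-control probes whose gene name in the array files is one of these symbols. They are 8 of 27670 genes on the array and are read by 9 of its 41174 probes, since Prss23 has 2 probes and the others have 1 each. Prss28 and Prss29 entered the set because their signal was so much lower after mating in these same arrays, so these 2 genes were chosen by the ratios given here and their ratios are a description only. The other 6 share the family name, and earlier results for them were known as well.

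The series held 3 arrays, and each array held 1 pool of total RNA from 10 adult CD-1 females in estrus. The normal-mated females had mated with normal males, the vasectomized-mated females had mated with vasectomized males, whose ejaculate lacks sperm from the testis, and the not mated females had no mating. How long after mating the tissue was taken is not stated in the sources used. With 1 array per group there is no spread between animals, so no test was possible and each difference below is a difference between pools.

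Prss proteases are trypsin-like enzymes that are made as inactive precursors and cut other proteins next to basic residues. Prss28 and Prss29 are the implantation serine proteinases, a pair of tryptase-related enzymes that mouse uterine glands secrete into the lumen around implantation under the influence of progesterone. Prss8 (prostasin) is anchored to the surface of epithelial cells, where it works with the transmembrane protease matriptase and activates the epithelial sodium channel. The other members are the agrin-cleaving protease Prss12 (neurotrypsin), the epithelial tryptases Prss22 (tryptase epsilon) and Prss27 (marapsin), and the secreted proteins Prss23 and Prss35, which have been described in the mouse ovary.

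Prss28 and Prss29 are next to each other on chromosome 17, between Prss34 and the tryptase genes Tpsab1, Tpsb2 and Tpsg1 in the RefSeq gene order. Their promoters are shown because these 2 neighbours had the lowest ratios of the 8 genes after either mating. Each line is the 250 bases before the RefSeq transcription start on the plus strand of GRCm38.p6, at chr17:25308396-25308645 for Prss28 and at chr17:25318404-25318653 for Prss29, and capitals mark runs of at least 8 identical aligned bases.
Prss28: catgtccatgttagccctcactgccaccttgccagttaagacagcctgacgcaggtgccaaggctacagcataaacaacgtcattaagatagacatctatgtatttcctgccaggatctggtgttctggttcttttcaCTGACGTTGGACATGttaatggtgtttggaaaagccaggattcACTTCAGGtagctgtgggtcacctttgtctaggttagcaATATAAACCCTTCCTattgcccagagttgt
Prss29: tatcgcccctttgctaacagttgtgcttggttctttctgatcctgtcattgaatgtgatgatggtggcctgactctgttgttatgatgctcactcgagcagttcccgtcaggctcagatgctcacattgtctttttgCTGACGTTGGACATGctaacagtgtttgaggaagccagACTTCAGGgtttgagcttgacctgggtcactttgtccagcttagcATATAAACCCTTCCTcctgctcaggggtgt

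In a global alignment, 173 of 271 columns were identical between the 2 promoters (63.8%), against 44.1% to 52.1% for the other 14 pairs among the 6 members with a promoter in the RefSeq table. Of the 3 shared runs, which hold 38 bases, the longest has 15 bases. The letters TATAAA begin 29 bases before the start in both promoters and were in none of the other 4, whereas 7.59% of 32851 RefSeq promoters hold them on the forward strand. This motif was chosen after the sequences had been seen. The forkhead core TGTTTAC, looked for on both strands because Foxa2 is the forkhead factor of uterine glands, was in none of the 6 promoters and in 3.17% of all. The steroid receptor motif TGTTCT, also looked for on both strands, was in the promoters of Prss28 and Prss27 and in 16.1% of all.

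The arrays were not alike in signal. Of the non-control spots, the share well above background was 70.7% in normal-mated, 65.85% in vasectomized-mated and 68.01% in not mated females, and no spot was saturated. The vasectomized-mated array stood apart: its 75th percentile of signal was 294.6, against 708.4 on the normal-mated and 873.7 on the not mated array, and its spike-in dose response had a slope of 0.838, outside the range of the scanner software. Genes read by several probes disagreed by over 2-fold between probes in 51.9% of 5822 cases for vasectomized-mated over not mated, and about as often for normal-mated over vasectomized-mated. The same share was 11.9% of 6302 genes for normal-mated over not mated, the comparison that leaves that array out. Signals below are linear intensities with the software's error for the spot (1 SD), levels are log2 of the signal over the array's 75th percentile, and ratios are log2 differences of levels. A ratio against an array on which the probe was not well above background is a bound, written "at least". Scaling to 8 spike-in control probes in place of the 75th percentile moved every measured ratio by -0.51 for normal-mated over not mated, by -2.69 for vasectomized-mated over not mated and by 2.18 for normal-mated over vasectomized-mated. Positive ratios under 2.69 in vasectomized-mated over not mated, and negative ratios smaller in size than 2.18 in normal-mated over vasectomized-mated, therefore change sign under it, and such values below hold only for scaling to the 75th percentile.

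All 8 genes could be compared in each of the 3 comparisons. In normal-mated over not mated, Prss28, Prss29, Prss12 and Prss35 were at least 2-fold lower and Prss22 was at least 2-fold higher, where 13.2% of 19303 genes were lower, 9.81% were higher and 23.0% passed 2-fold either way. The median ratio of the 8 genes was -0.92, against -0.05 over all genes. In vasectomized-mated over not mated, Prss28, Prss29, Prss8 and Prss12 were lower and Prss23 and Prss35 were higher, where 16.5% of 19306 genes were lower, 25.8% were higher and 42.4% passed either way. The median was -0.48 for the members and 0.18 over all genes. In normal-mated over vasectomized-mated, Prss28, Prss29 and Prss8 were higher and Prss23, Prss27 and Prss35 were lower, where 14.7% of 18988 genes were higher, 28.0% were lower and 42.7% passed either way. Their median was 0.5, against -0.27 over all genes. Since both matings were set against the same not mated array, their ratios share its error and the choice of members fixed part of these counts.

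**Figure D1:**
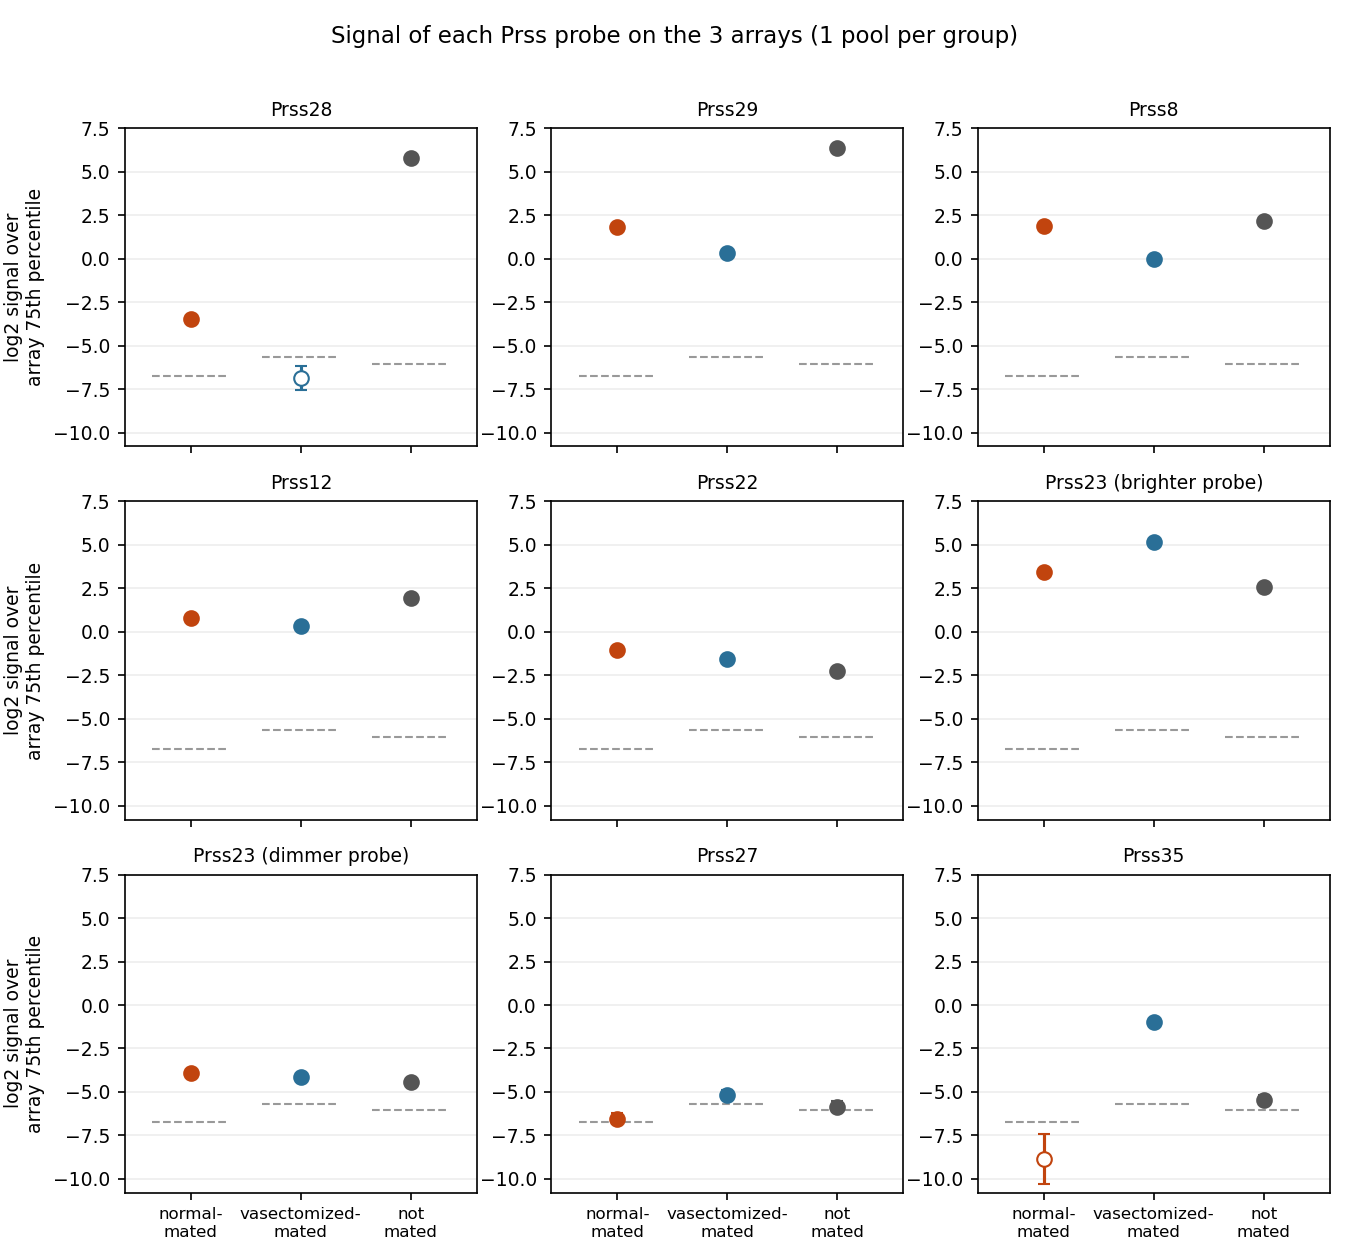
Level of each of the 9 Prss probes on the normal-mated, vasectomized-mated and not mated arrays, as log2 signal over the 75th percentile of the array, with the software's error for the spot as a bar where it exceeds the point. Open points were not well above background and dashed lines mark the lowest signal well above background on that array; Prss28 and Prss29 stand at 5.8 and 6.36 on the not mated array and lower on both mated arrays.

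Prss28 had a signal of 64.4 ± 6.57 on the normal-mated array and 2.5 ± 1.18 on the vasectomized-mated array, where it was not well above background, against 48761 ± 4876 on the not mated array. Its level was -3.46 in normal-mated and -6.88 in vasectomized-mated females, against 5.8 in not mated females. Relative to not mated females it was 614-fold lower in normal-mated females (log2 ratio -9.26, software error 0.21) and at least 2833-fold lower in vasectomized-mated females (-11.47). With this scaling, no other of the 19303 genes compared in the first and of the 19306 in the second had a ratio as low. It was at least 4.61-fold higher in normal-mated than in vasectomized-mated females (2.21), though normexp background correction gave no bound between the matings. In pooled whole tissue, fewer cells of a type and less RNA per cell cannot be told apart.

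Prss29 had a signal of 2495 ± 249 in normal-mated and 367 ± 36.7 in vasectomized-mated females, against 71864 ± 7186 in not mated females, and was well above background on all 3 arrays. It was 23.4-fold lower in normal-mated (-4.55, error 0.2) and 66.1-fold lower in vasectomized-mated females (-6.05, error 0.2) than in not mated females. Counting Prss29 itself, 19 genes had a ratio at or below it for normal-mated and 3 for vasectomized-mated over not mated. Between the matings it was 2.83-fold higher in normal-mated than in vasectomized-mated females (1.5). Thus both genes had the same order of arrays: highest in not mated, then normal-mated, then vasectomized-mated females.

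The ratio of Prss28 lay further from 0 than that of Prss29. The difference between their log2 ratios, in which any constant scaling of an array cancels, was -4.72 for normal-mated over not mated and at most -5.42 for vasectomized-mated over not mated. Over 9 other ways of processing, the ratio of Prss29 ran from -5.08 to -4.46 for normal-mated and from -8.74 to -5.95 for vasectomized-mated over not mated. That of Prss28 ran from -9.78 to -8.36 for normal-mated and, over the 8 that gave a value, from -14.16 to -8.29 for vasectomized-mated over not mated. The 2 genes are related in sequence, and whether either probe also binds the other transcript was not tested.

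**Figure D2:**
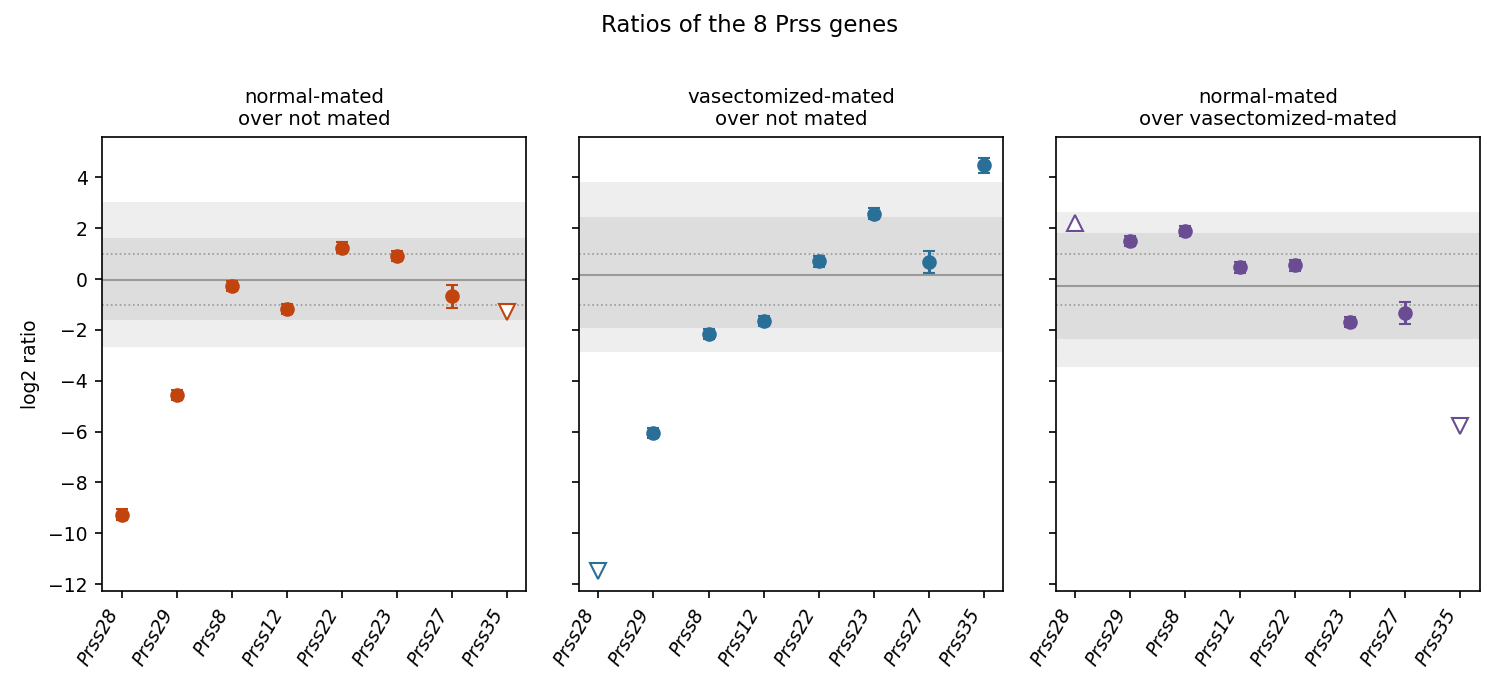
Log2 ratio of the 8 Prss genes in the 3 comparisons, with the software's error as a bar and triangles for bounds that point the way the true ratio may lie. The dark band holds the central 90% and the light band the central 98% of all genes, the grey line is their median and dotted lines mark 2-fold; Prss28 and Prss29 lie below both bands in the comparisons with not mated females, and under spike-in scaling Prss22, Prss23 and Prss27 change sign in vasectomized-mated over not mated, and Prss23 and Prss27 in normal-mated over vasectomized-mated.

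Other genes of uterine glands were higher in some cases and lower in others. Foxa2, the forkhead factor that marks these glands, had signals of 6601 in normal-mated and 3005 in vasectomized-mated females, against 2588 in not mated females, which gave ratios over not mated of 1.65 for normal-mated and 1.78 for vasectomized-mated females (-0.91 under spike-in scaling). Set against Foxa2 within the same arrays, Prss29 was lower by a log2 difference of ratios of -6.2 for normal-mated and -7.83 for vasectomized-mated over not mated. Of 6 other gland genes on the array, 5 could be compared, and 3 were higher and 2 lower in normal-mated females. The higher genes were Foxa2, the chemokine Cxcl15 (1.19) and the whey acidic protein Wfdc3 (2.62 by its brightest probe, 0.5 by the other). The lower genes were the transcription factor Sox17 (-1.46) and the calcitonin gene Calca (-1.78 by its brightest probe, 0.29 by another). In vasectomized-mated over not mated 3 were higher and 1 was lower, while Ttr was not well above background on any array. The median over the 5 genes was 1.19 for normal-mated and 1.78 for vasectomized-mated over not mated, where Foxa2 was the middle gene.

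Most of the listed genes that respond to progesterone in the uterus were lower in normal-mated than in not mated females. Of 20 listed genes, 14 were lower and 1 was higher in normal-mated over not mated (median -1.74), where 13.2% of all genes were lower and 9.81% higher. In vasectomized-mated over not mated 8 were lower and 4 higher (median -0.57), where 16.5% of all genes were lower and 25.8% higher. Under spike-in scaling 17 were lower in normal-mated (median -2.26) and 18 in vasectomized-mated over not mated (median -3.26). Over all genes that scaling made 5458 of 18944 lower in normal-mated over not mated (median -0.58). In vasectomized-mated over not mated it made 16495 of 18674 lower (median -2.58), a share near that of the listed genes. In normal-mated over vasectomized-mated, 12 of 19 were lower and 1 was higher (median -1.25), a direction that spike-in scaling turns to 1.02. Over all genes, 28.0% were lower and 14.7% higher in that comparison. Il13ra2, a decoy receptor for interleukin 13, was at least 49.2-fold lower in normal-mated and 13.2-fold lower in vasectomized-mated than in not mated females. Hsd11b2, which inactivates glucocorticoids, was 25.1-fold lower in normal-mated and at least 20.4-fold lower in vasectomized-mated females. The endocytic receptor Lrp2 was 15.3-fold lower in normal-mated and 12.6-fold lower in vasectomized-mated females. Areg went the other way, at least 9.28-fold higher in normal-mated and at least 7.9-fold higher in vasectomized-mated than in not mated females. The others higher in vasectomized-mated over not mated were Acod1 (1.82), Nr2f2 (1.66, or 0.17 by another probe) and Fst (1.51).

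The genes with array patterns most like Prss29 and Prss28 are given as a description. Likeness was the Euclidean distance over the 3 arrays of log2 levels centred for each gene, with levels below an array's floor set to it, among 18515 genes detected above background in not mated females. The nearest to Prss29 were the protease inhibitor Mug1 (distance 0.35), the carboxylesterase Ces2b (0.59), the phospholipase A2 inhibitor Pinlyp (0.63), the hedgehog ligand Ihh (0.81) and the retinoic acid-degrading enzyme Cyp26a1 (0.84). In normal-mated over not mated their ratios were -4.52 for Mug1, -4.43 for Ces2b, -5.24 for Pinlyp, -3.74 for Ihh and -3.94 for Cyp26a1. In vasectomized-mated over not mated they were -5.6 for Mug1, -5.27 for Ces2b, -5.9 for Pinlyp, -4.94 for Ihh and -4.85 for Cyp26a1. Prss28 had no neighbour as near. The closest was a probe for an expressed sequence tag with no gene name (distance 1.83, with a ratio of -7.15 for normal-mated and -9.11 for vasectomized-mated over not mated), followed by the dopamine receptor Drd4 (4.04), Pinlyp (4.06), Prss29 (4.17) and the chloride channel Ano2 (4.34). With only 3 arrays, the distances describe these pools and do not stand for a relation across animals. Ihh and Cyp26a1 are also in the progesterone list. Prss29 was chosen by the ratios that the distance matches, and that list was chosen with earlier results known. Their nearness to Prss29 is therefore no separate sign of a link to progesterone, which was not tested.

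The neighbours of Prss28 and Prss29 on chromosome 17 were dim, and their ratios were smaller in size. Prss34, a basophil protease next to Prss28, had signals of 20.5 and 9.4 in normal-mated and vasectomized-mated females, against 27.8 in not mated females, with ratios over not mated of -0.14 for normal-mated and 0.01 for vasectomized-mated. Tpsab1, a mast cell tryptase next to Prss29, had 17.4 in normal-mated and 9.31 in vasectomized-mated females, against 23.9 in not mated females. The lowest signals well above background were 6.59 on the normal-mated, 5.8 on the vasectomized-mated and 13.2 on the not mated array. A fall as large as that of Prss29 could therefore not have been measured for Prss34 or Tpsab1. The next gene, the mast cell tryptase Tpsb2, was lower in normal-mated (-2.49) and in vasectomized-mated females (-1.16), and Tpsg1 was at least 3.59-fold lower in normal-mated females. Among the 9 serine protease genes of these chromosome 17 clusters that are not members, 8 could be compared in normal-mated over not mated, with 2 lower and 1 higher. For vasectomized-mated over not mated 7 could be compared, with 1 lower and 0 higher. The higher gene was Prss32 (2.62), with signals of 93.3 and 11.3 in normal-mated and vasectomized-mated females, against 18.8 in not mated females.

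**Figure D3:**
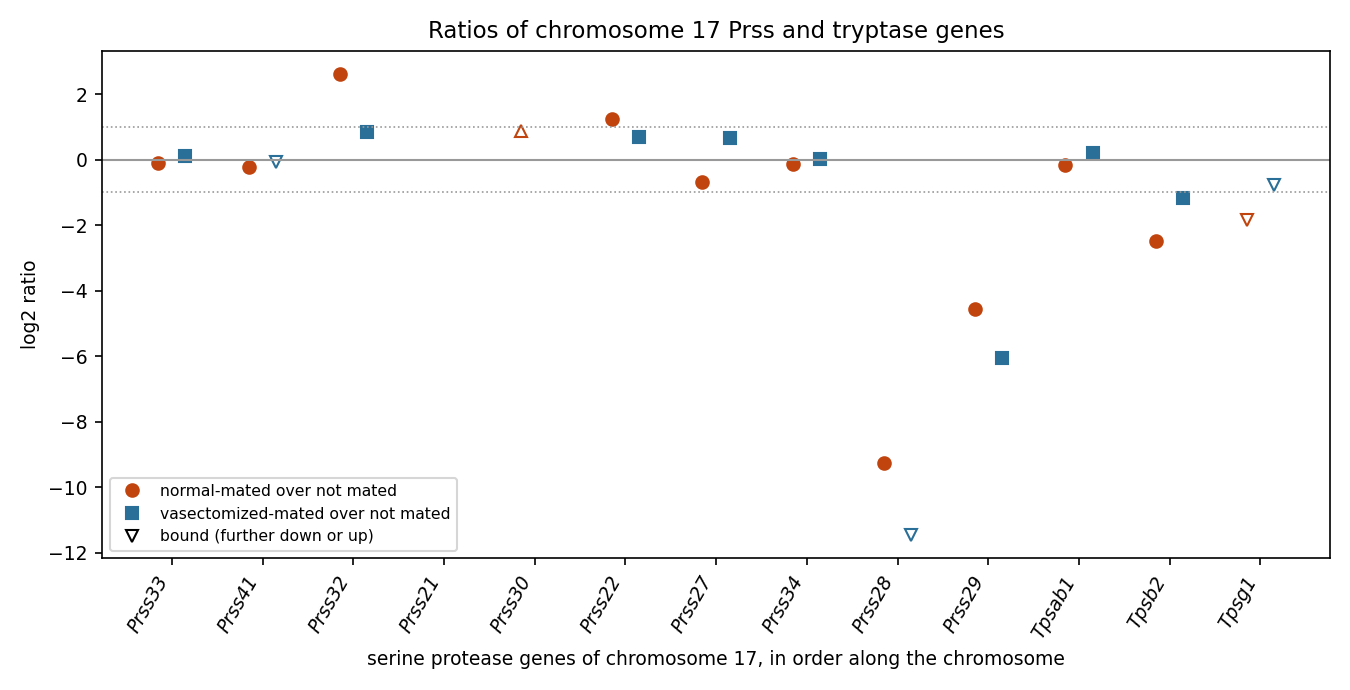
Log2 ratios over not mated of the 13 Prss and tryptase genes of chromosome 17, in their order along the chromosome (spacing not to scale); circles are normal-mated, squares vasectomized-mated, open triangles bounds, and a gene with no mark was not well above background on either array or gave no fold. Prss34 and Tpsab1 on either side of Prss28 and Prss29 lie near 0, but their signals are too close to background to show a fall as large. Spike-in scaling would move every circle by -0.51 and every square by -2.69.

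Mast cells share tryptases with this cluster, and several but not all of their genes were lower as well. Of 7 compared mast cell markers, 5 were lower in normal-mated (median -2.49) and 4 in vasectomized-mated over not mated (median -1.16), and none was higher past 2-fold. Kit lay just inside 2-fold on the higher side in normal-mated over not mated (0.99) and at -0.42 in vasectomized-mated over not mated. Fcer1a was at -1.0 in normal-mated and 0.17 in vasectomized-mated over not mated. With normexp background correction 3 were lower in normal-mated (median -0.91) and 1 in vasectomized-mated over not mated (median -0.68). The summed signal of the list over the 75th percentile was almost wholly that of Hdc, the histamine-forming enzyme, which was within 2-fold of not mated females on both mated arrays. Without Hdc the sum was 1.68 in normal-mated and 1.37 in vasectomized-mated females, against 2.98 in not mated females (46.7 in normal-mated and 54.1 in vasectomized-mated females, against 86.4 in not mated females, with it). The chymases Mcpt4 and Cma1 and the carboxypeptidase Cpa3 had ratios closer to 0 than Prss29. In normal-mated over not mated these were -3.02 for Mcpt4, -2.63 for Cma1 and -2.57 for Cpa3, and in vasectomized-mated over not mated -1.64 for Mcpt4, -1.34 for Cma1 and -1.72 for Cpa3. Ms4a2, a receptor chain in the mast cell list, was not well above background on any array. Of 6 compared tryptases and mast cell proteases, 5 were lower in normal-mated and 3 in vasectomized-mated over not mated. This list shares Mcpt4, Cma1 and Tpsb2 with the mast cell markers. With normexp background correction 2 were lower in normal-mated (median -0.68) and 1 of 5 in vasectomized-mated over not mated (median 0.33). The part of mast cells in the Prss28 and Prss29 values was not tested.

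Prss8 differed between the matings. Its signal was 2605 ± 260 in normal-mated and 292 ± 29.3 in vasectomized-mated females, against 3871 ± 387 in not mated females. Normal-mated and not mated females lay within 2-fold of each other (-0.27), whereas Prss8 was 4.46-fold lower in vasectomized-mated than in not mated females (-2.16). It was 3.7-fold higher in normal-mated than in vasectomized-mated females (1.89). Of 13 epithelial markers, 4 were lower, 1 was higher and 8 were within 2-fold in vasectomized-mated over not mated (median -0.49), and 0 were lower and 6 higher in normal-mated over not mated (median 0.71). The summed signal of these markers over the 75th percentile was 761 in normal-mated and 314 in vasectomized-mated females, against 474 in not mated females, and all 13 were well above background on each array. In normal-mated over vasectomized-mated, 10 of the 13 were higher and 1 was lower (median 1.56). The log2 ratio of Prss8 minus the epithelial median was 0.33 in that comparison, -1.67 in vasectomized-mated over not mated and -0.98 in normal-mated over not mated. The part of epithelial content in the Prss8 values was not tested.

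The partners of prostasin were read in full. Matriptase itself, St14, had ratios of 0.89 in normal-mated and 0.07 in vasectomized-mated over not mated, although another St14 probe gave -3.8 in the second comparison. The Kunitz inhibitors that restrain both enzymes were within 2-fold of not mated females. Spint1 had ratios of -0.36 for normal-mated and -0.92 for vasectomized-mated females (-3.15 by another probe), and Spint2 had 0.88 for normal-mated and 0.13 for vasectomized-mated females. Within the arrays, the ratio of Prss8 minus that of St14 was -1.16 for normal-mated and -2.23 for vasectomized-mated over not mated, but the other St14 probe gave -0.77 for normal-mated and turned the value to 1.64 for vasectomized-mated. Minus that of Spint1 it was 0.09 for normal-mated and -1.24 for vasectomized-mated, with 0.33 for normal-mated and 0.99 for vasectomized-mated by the other Spint1 probe. Minus that of Spint2, which has a single probe, it was -1.15 for normal-mated and -2.29 for vasectomized-mated. The serpin Serpine2, which inhibits prostasin, was lower in normal-mated (-1.12) and in vasectomized-mated females (-1.52).

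The sodium channel subunits that prostasin activates did not move together. Scnn1a, the alpha subunit, had signals of 425 and 71.4 in normal-mated and vasectomized-mated females, against 849 in not mated females, and was 4.01-fold lower in vasectomized-mated than in not mated females. Scnn1g, the gamma subunit, was 3.73-fold lower in normal-mated and at least 3.82-fold lower in vasectomized-mated than in not mated females, and Scnn1b, the beta subunit, was within 2-fold in normal-mated (0.97) and vasectomized-mated females (0.31). The protease-activated receptor F2rl1 was within 2-fold in normal-mated (0.77) and vasectomized-mated females (0.12), and the adhesion protein Epcam, a matriptase substrate, was 3.15-fold higher in normal-mated females (1.66) and within 2-fold in vasectomized-mated females (-0.49). Of the 10 genes of this list, 2 were lower and 1 was higher in normal-mated over not mated (median 0.21), and 3 were lower and 0 higher in vasectomized-mated over not mated (median -0.21). In normal-mated over vasectomized-mated 2 were higher and 1 was lower (median 0.66).

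**Figure D4:**
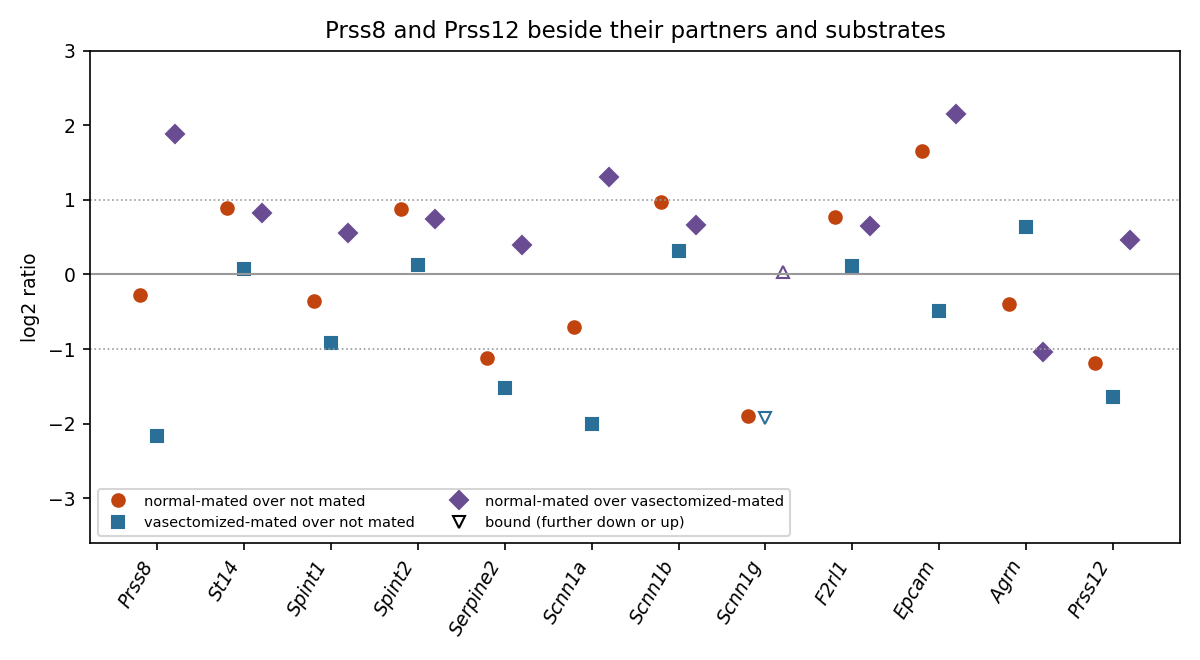
Log2 ratios of Prss8 and Prss12 and of the 10 genes of the matriptase-prostasin list (inhibitors, channel subunits, receptor and substrates), with circles for normal-mated over not mated, squares for vasectomized-mated over not mated, diamonds for normal-mated over vasectomized-mated and open triangles for bounds. Prss8 and Scnn1a share low squares (-2.16 and -2.0) and high diamonds (1.89 and 1.31); spike-in scaling would move circles by -0.51, squares by -2.69 and diamonds by 2.18, which turns the diamond of Agrn and the squares above 0.

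Prss12 was lower after both matings. Its signals were 1214 ± 121 in normal-mated and 367 ± 36.7 in vasectomized-mated females, against 3392 ± 339 in not mated females. It was 2.27-fold lower in normal-mated (-1.18, error 0.2) and 3.11-fold lower in vasectomized-mated than in not mated females (-1.64), and the 2 mated arrays were within 2-fold of each other (0.46), though spike-in scaling placed them 2.64 apart on the log2 scale. Agrn, its substrate at the nerve-muscle synapse, had ratios over not mated of -0.4 for normal-mated and 0.64 for vasectomized-mated females (-0.37 by another probe). Prss12 minus Agrn was -0.78 for normal-mated and -2.28 for vasectomized-mated over not mated. Of 11 stroma and smooth muscle markers, 4 were lower and 0 higher in normal-mated over not mated (median -0.88). In vasectomized-mated over not mated 2 were lower and 4 higher (median 0.39, below 0 under 2 of 8 settings and under spike-in scaling), and their summed signal was 545 and 1820 in normal-mated and vasectomized-mated females, against 699 in not mated females. Their part in the Prss12 values was not tested.

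Prss22 was the member that was higher past 2-fold in normal-mated over not mated females. It had signals of 346 ± 34.6 in normal-mated and 98.9 ± 9.96 in vasectomized-mated females, against 180 ± 18.2 in not mated females. The ratio over not mated was 1.24 for normal-mated (2.37-fold higher, 0.73 under spike-in scaling) and 0.7 for vasectomized-mated females (-1.99 under spike-in scaling). Prss22 minus the epithelial median was 0.53 in normal-mated and 1.19 in vasectomized-mated over not mated, and -1.02 in normal-mated over vasectomized-mated.

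Prss27, the neighbour of Prss22 on chromosome 17, was close to background throughout. Its signals were 7.67 ± 1.67 in normal-mated and 8.07 ± 1.62 in vasectomized-mated females, against 15.1 ± 3.3 in not mated females, where the lowest signals well above background were 6.59, 5.8 and 13.2. The ratio over not mated was -0.67 (error 0.45) for normal-mated and 0.67 (error 0.43) for vasectomized-mated females, and that of vasectomized-mated females turned to -2.02 under spike-in scaling. With normexp background correction it turned to 0.09 for normal-mated and passed 2-fold for vasectomized-mated females (1.19). In normal-mated over vasectomized-mated it was 2.53-fold lower (-1.34, error 0.43), within 2-fold under quantile normalization and cyclic loess, and 0.84 under spike-in scaling.

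Prss35, and Prss23 except under spike-in scaling, were highest in vasectomized-mated females. The brighter Prss23 probe had signals of 7809 ± 781 in normal-mated and 10425 ± 1043 in vasectomized-mated females, against 5170 ± 517 in not mated females. It was 5.98-fold higher in vasectomized-mated than in not mated females (2.58, but -0.11 under spike-in scaling), and 1.86-fold higher in normal-mated than in not mated females (0.9). In normal-mated over vasectomized-mated it was 3.21-fold lower (-1.68, but 0.49 under spike-in scaling). The dimmer Prss23 probe did not show this, with signals of 47.7 ± 4.97 and 16.6 ± 2.13 in normal-mated and vasectomized-mated females, against 40.9 ± 4.94 in not mated females, and ratios over not mated of 0.52 for normal-mated and 0.27 for vasectomized-mated. The 2 probes therefore disagree over vasectomized-mated females.

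Prss35, a member of the family that lacks the usual catalytic serine, had a signal of 1.5 ± 1.5 on the normal-mated array, which was not well above background. The signal was 150 ± 15.1 in vasectomized-mated females, against 19.9 ± 3.58 in not mated females. It was 22.4-fold higher in vasectomized-mated than in not mated females (4.48, error 0.3) and at least 54.7-fold lower in normal-mated than in vasectomized-mated females (-5.77). The first ratio was 2.74 with normexp background correction and 1.79 under spike-in scaling, and the second was -2.9 with normexp and -3.6 under spike-in scaling. In normal-mated females it was at least 2.45-fold lower than in not mated females (-1.29), a bound that fell inside 2-fold with normexp background correction (-0.16) and quantile normalization (-0.99).

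Many ovary and cumulus genes were higher on the vasectomized-mated array. Of 11 compared, 8 were lower and 0 higher in normal-mated over vasectomized-mated (median -1.8, or 0.44 under spike-in scaling). Of 16 such genes on the array, 12 were well above background in normal-mated, 11 in vasectomized-mated and 7 in not mated females, and their summed signal over the 75th percentile was 2.01 and 14.0 in normal-mated and vasectomized-mated females, against 1.38 in not mated females. Of 12 compared, 7 were higher and 0 lower in vasectomized-mated over not mated (median 2.19), and 5 were higher and 2 lower in normal-mated over not mated (median 0.2). Under spike-in scaling 4 were higher and 4 lower in vasectomized-mated over not mated (median 0.36). Inhba, Cyp17a1 and Foxl2 had their highest level in not mated females. Hsd3b1, a steroid-synthesis enzyme, had signals of 329 in normal-mated and 2299 in vasectomized-mated females, against 24.6 in not mated females. It made up 55.8% of the summed signal in vasectomized-mated females. Without Hsd3b1 the sum was 1.55 in normal-mated and 6.17 in vasectomized-mated females, against 1.35 in not mated females. The oocyte gene Gdf9 was higher in normal-mated (1.97) and in vasectomized-mated females (3.64), and so was Oosp1 (at least 3.61 in normal-mated and at least 6.01 in vasectomized-mated females). Cyp11a1, another steroid-synthesis enzyme, was at least 147-fold higher in vasectomized-mated females, while Zp2, Fshr and Lhcgr were not well above background on any array. Prss35 minus the ovary and cumulus median was 2.29 and Prss23 minus it was 0.39 in vasectomized-mated over not mated. The part of ovarian material in the Prss23 and Prss35 values was not tested.

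**Figure D5:**
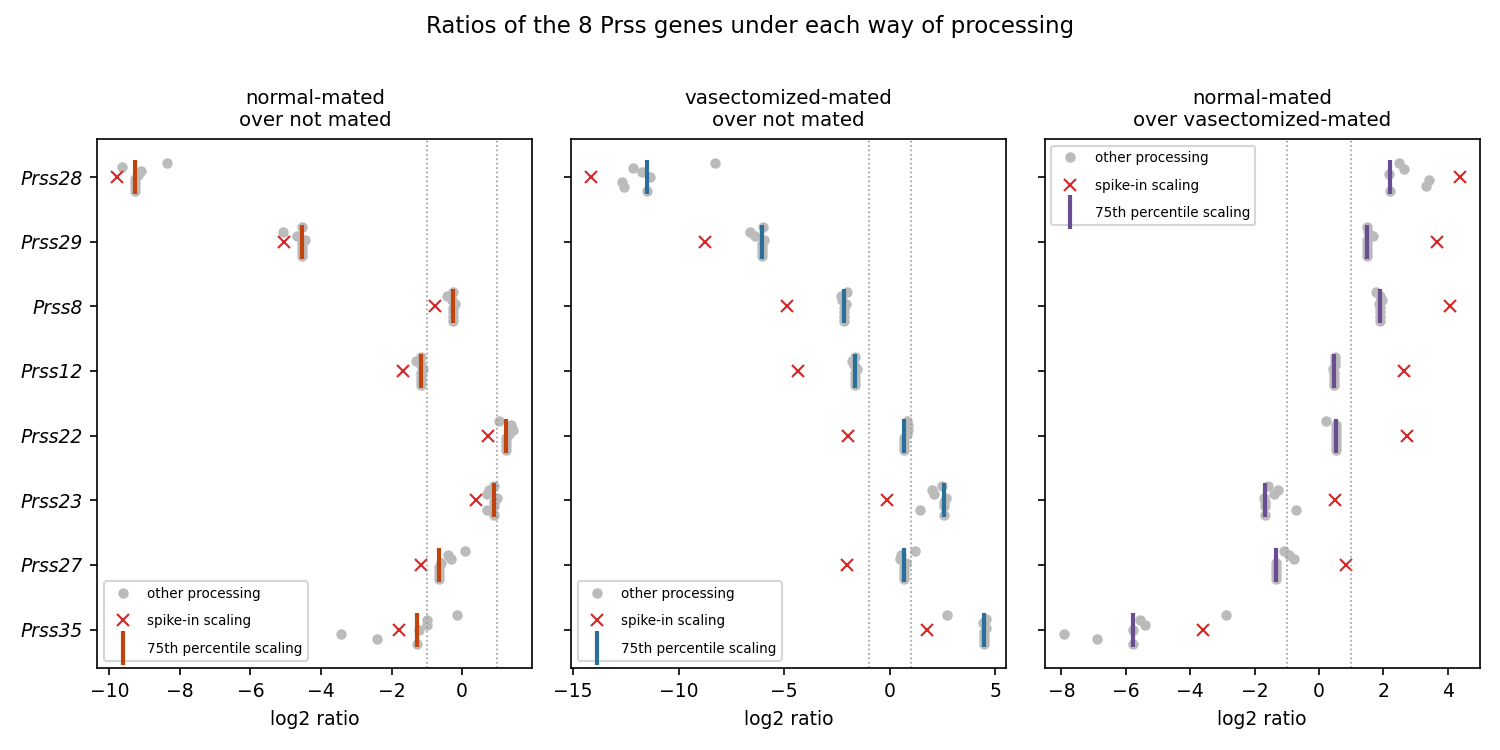
Log2 ratio of the 8 Prss genes under the scaling to the 75th percentile (vertical bar), spike-in scaling (cross) and the other alternatives (grey points), in the 3 comparisons; dotted lines mark 2-fold. The points of Prss28 and Prss29 lie below -4 in both comparisons with not mated females under every setting shown, while spike-in scaling moves Prss22, Prss23 and Prss27 across 0 in vasectomized-mated over not mated, and Prss23 and Prss27 in normal-mated over vasectomized-mated.

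Most of the other Prss genes were dim or within 2-fold. There were 27 of them on the array, read by 33 probes, and 12 could be compared in normal-mated over not mated, of which 1 was lower, 1 was higher and 10 were within 2-fold (median 0.1). The lower gene was Prss3, a pancreatic trypsin, with signals of 70.8 and 21.9 in normal-mated and vasectomized-mated females, against 1611 in not mated females, and ratios of -4.21 for normal-mated and -4.64 for vasectomized-mated over not mated. A second Prss3 probe, at 11.5 in normal-mated and 7.11 in vasectomized-mated females, against 10.7 in not mated females, did not show it. Of 7 other pancreatic acinar genes compared in normal-mated over not mated, 1 was lower, Cpb1 (a bound of -1.32, with a signal of 20.3 in not mated females), and 1 was higher. That higher pancreatic gene was Cela3b (at least 1.48). Among the other Prss genes, the higher gene was Prss32, described above. In vasectomized-mated over not mated, 12 were compared, with Prss3 lower and Prss37, Prss42 and Prss55, 3 genes known from the testis, higher (1.58, at least 1.92 and at least 1.36). Under spike-in scaling the ratio of Prss37 lies below 0 and the probes of Prss42 and Prss55 give no bound above 0, which leaves their direction unmeasured. Prss36, next to Prss8 on chromosome 7, had ratios over not mated of -0.31 for normal-mated and 0.99 for vasectomized-mated, and Prss21, a testis protease of the chromosome 17 cluster, was not well above background on any array.

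Among kallikreins, a large family of trypsin-like and chymotrypsin-like secreted proteases, similar numbers were lower and higher with scaling to the 75th percentile. Of 17 compared kallikreins, 4 were lower and 5 higher in normal-mated over not mated (median 0.03), and of 15 compared in vasectomized-mated over not mated 5 were lower and 3 higher (median 0.04). Under spike-in scaling 6 were lower and 2 higher in normal-mated (median -0.71), and 14 were lower and 0 higher in vasectomized-mated over not mated (median -2.66). The medians of all genes under that scaling were -0.58 and -2.58. Klk10 was 7.96-fold higher in normal-mated than in not mated females and 7.44-fold higher than in vasectomized-mated females, and Klk8 was 4.84-fold lower in normal-mated and 2.06-fold lower in vasectomized-mated than in not mated females. Klk11 was 6.59-fold higher in normal-mated than in vasectomized-mated females. Klk1b11 (2.35 for normal-mated and 2.34 for vasectomized-mated over not mated) belongs to a set of near-identical gene copies, and whether its probe tells them apart was not tested. Of the type II transmembrane proteases, 3 of 7 were higher and 0 lower in normal-mated over not mated (median 0.17, or -0.34 under spike-in scaling), namely Tmprss11d (at least 8.61-fold), an airway-type protease, Tmprss6 (1.2), which acts on hepcidin control in liver, and Tmprss4 (1.07). Of 8 compared in vasectomized-mated over not mated, Tmprss13 was higher (1.15) and Tmprss2 lower (-1.37).

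Inhibitors and the plasminogen system differed more. Of 11 compared Kazal-type and whey acidic protein inhibitors, 7 were higher and 0 lower in normal-mated over not mated (median 1.89, or 0.13 over 15 genes with no filter on dim probes), and of 12 compared 9 were higher and 0 lower in vasectomized-mated over not mated (median 2.24, or -0.32 with 3 higher and 3 lower under spike-in scaling). Spink12 had signals of 8255 and 4391 in normal-mated and vasectomized-mated females, against 288 in not mated females, and was 35.4-fold higher in normal-mated and 45.2-fold higher in vasectomized-mated females. Slpi, the secretory leukocyte protease inhibitor, was 6.35-fold higher in normal-mated and 6.3-fold higher in vasectomized-mated females. Spink4 was 3.71-fold higher in normal-mated and 14.7-fold higher in vasectomized-mated females, and Spink2 was 3.77-fold higher in normal-mated and 7.02-fold higher in vasectomized-mated females. Of 10 plasminogen-system genes, 3 were higher and 1 lower in normal-mated over not mated (median 0.53), and 5 were higher and 1 lower in vasectomized-mated over not mated (median 1.02, or -2.05 under spike-in scaling). Plaur, the urokinase receptor, was 6.06-fold higher in normal-mated and 2.45-fold higher in vasectomized-mated females.

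Neutrophils and oviduct epithelium were also read on these arrays. All 7 compared neutrophil genes were higher in normal-mated (median 3.47) and vasectomized-mated over not mated (median 3.71), some of them as bounds. Under spike-in scaling 6 were higher in normal-mated (median 2.96) and 4 in vasectomized-mated over not mated (median 1.18). The summed signal of the list over the 75th percentile was 60.1 and 86.8 in normal-mated and vasectomized-mated females, against 0.244 in not mated females. On both mated arrays this sum was mostly that of S100a9, with signals of 39458 in normal-mated and 24510 in vasectomized-mated females, against 97.9 in not mated females. Of 7 oviduct markers, 4 were higher and 0 lower in normal-mated (median 1.16) and 2 were higher and 2 lower in vasectomized-mated over not mated (median 0.7, but -0.67 with the median over probes and -1.99 under spike-in scaling). The oviduct glycoprotein Ovgp1 made up most of their summed signal, which without it was 37.0 in normal-mated and 22.8 in vasectomized-mated females, against 12.6 in not mated females. The part of these cell types in the Prss values was not tested.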

How the data were processed

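Total RNA from the utero-tubular junction was labelled with Cy3 and hybridised to single-colour Agilent arrays, per the labels' protocols, and the mating labels gave the groups. The deposited intensity values are processed signals of Agilent Feature Extraction, background-corrected within each array with no scaling between them; per the file headers the version is 10.5.1.1 (9.5.3 in the submitters' processing notes). All arrays carry 1 scan date, so the scan date does not separate the groups. Slide and position on the slide were not compared.

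Here the deposited intensities were turned into log2 values and each array's 75th percentile was subtracted, taken over the 43379 non-control spots of 45018, averaged over unflagged spots of a probe. A gene took its brightest probe, where possible among probes above background on 1 or more arrays. Where only 1 of 2 arrays was well above background, the ratio was set against the higher of the lowest signal well above background on the other array and the probe's own signal, as a bound. With 1 array per group, calls are ratios of at least 2-fold without a test, and the number of arrays limits the precision. The SD of log2 signal between replicate spots was 0.0522 on the normal-mated, 0.0622 on the vasectomized-mated and 0.0567 on the not mated array (10 spots for each of 149, 158 and 158 probes), which leaves out animals.

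Of 41174 probes, 22951 were named by accession, 6659 by symbol and 3109 by synonym in the RefSeq gene set of GRCm38.p6, and 8455 kept the file's name. The genome build behind the arrays is not stated in the sources used. Tools were R 4.3.3, data.table (version 1.17.8), limma 3.58.1, Python 3.11.15, numpy 2.4.6, pandas 2.3.3, matplotlib 3.10.9 and Biopython 1.88. The ratio step was tested on simulated data. Alternatives were normexp background correction (offset 50), quantile, cyclic loess, detected-probe median and spike-in scaling, 2 filters on dim probes, the median over probes and keeping outlier spots. The members and the gene lists were chosen with earlier results of these data known. Named genes are all members, the other Prss genes past 2-fold, the prostasin list, up to 5 genes per list with the largest ratios over not mated, and the 5 genes nearest in pattern to Prss28 and to Prss29. Tpsab1, Tpsg1, Prss34, Prss36 and Prss21 were named as chromosomal neighbours, some undetected markers as such, and Hdc, Ovgp1, Inhba, Cyp17a1, Foxl2 and Cpb1 beside their list's values, after their values were seen. Areg, Acod1, Nr2f2, Fst, Kit and Fcer1a were likewise named after their values were seen, as genes that differed from most of their list. Protein sequences were not used here.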

Additional observations from a re-analysis of the deposited data

How the results depend on the processing

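Of 211 member ratios recomputed under 9 alternatives, 195 kept their direction and their side of 2-fold and 16 did not. The cause was not tested. Part of this agreement was fixed in advance, since no member spot carried an outlier flag and most members have 1 probe. For their measured ratios, the 2 filters on dim probes, the median over probes and keeping outlier spots return the main value by construction. Scaling to 8 spike-in probes moved every measured ratio by -0.51 for normal-mated and -2.69 for vasectomized-mated over not mated, and by 2.18 for normal-mated over vasectomized-mated, so that the median of all genes became -0.58, -2.58 and 1.9. It reversed Prss22 (-1.99), Prss23 (-0.11) and Prss27 (-2.02) in vasectomized-mated over not mated and Prss23 (0.49) and Prss27 (0.84) in normal-mated over vasectomized-mated. Relative to the median of all genes, the ratio of Prss23 stayed between 1.33 and 2.47 in vasectomized-mated over not mated under all 9. Under spike-in scaling 0 members were higher in normal-mated over not mated, 1 was higher in vasectomized-mated over not mated, and in normal-mated over vasectomized-mated 5 were higher and 1 was lower. Over all genes it gave 1052 higher and 5458 lower in normal-mated over not mated, 217 higher and 16495 lower in vasectomized-mated over not mated, and 15388 higher and 250 lower in normal-mated over vasectomized-mated. With normexp correction 933 genes were lower in normal-mated and 1717 in vasectomized-mated over not mated, and 1702 were higher in normal-mated over vasectomized-mated. With no filter on dim probes 11118 genes were lower in normal-mated over vasectomized-mated. The share of called genes that were higher was 42.7% in normal-mated over not mated (59.5% with normexp, 52.9% with cyclic loess, 16.2% with spike-in scaling), 61.0% in vasectomized-mated over not mated (77.1% with normexp, 1.3% with spike-in scaling) and 34.5% in normal-mated over vasectomized-mated (98.4% with spike-in scaling). With normexp Prss27 turned to 0.09 in normal-mated over not mated. The median over probes took Prss23 to -0.71 in normal-mated over vasectomized-mated. No paired analysis was possible because each group had 1 array, and no array could be left out. Dim signals limit the ratios of Prss27, of Prss35 on the normal-mated array and of Prss28 on the vasectomized-mated array.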
